A study of Mus musculus with 8 samples.

Results

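Interleukin receptors of activated B cells were followed through their 9 genes Il2ra, Il15ra, Il21r, Il4ra, Il7r, Il9r, Il5ra, Il6ra and Il10ra. They were taken by gene symbol, with earlier results of these data known, and each had 1 probe set of its own, so the 9 genes stood for 9 of 25349 probe sets and 9 of 21515 genes. Levels came from 8 expression arrays of mouse spleen B cells, in 4 groups of 2 arrays that are labelled biological replicates. LMP1 cells carried the alleles LMP1flSTOP/YFPflSTOP and YFP control cells the alleles YFPflSTOP/+. Both came from female (C57BL6XBALBc) F1 mice, were enriched by depletion of CD43-bearing cells, were given the cell-permeable recombinase TAT-Cre to remove the stop cassettes, and were sorted as YFP-positive cells 2 days later. The remaining groups were from male B6/J mice (breed C57BL6) by the same depletion. RNA of the naive control cells was prepared directly, while CD40-activated cells were held for 2 days with an antibody against CD40. The ages of the mice, the promoter that drives LMP1 and whether animals were pooled are not given in the sources used here. The LMP1 and YFP control arrays were re-analysed from an earlier series, so every comparison across the pairs of groups also crosses strain, sex, TAT-Cre, sorting and series, which cannot be told apart there. The comparison of CD40-activated with naive cells lies within 1 strain and sex but joins antibody and culture.

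The viral protein LMP1, of Epstein-Barr virus, is active without any ligand and recruits adaptors that CD40 also recruits. Many interleukin receptors join a chain that recognises its cytokine with a chain shared between receptors. The receptors for IL-2, IL-4, IL-7, IL-9, IL-15 and IL-21 share the common gamma chain. The IL-5 receptor uses the common beta chain, the IL-6 receptor gp130 and the IL-10 receptor an accessory chain encoded by Il10rb. Bound receptors activate JAK kinases, which phosphorylate STAT transcription factors, and SOCS proteins feed back on them. In B cells, IL-4 and IL-21 from helper T cells steer class switching and differentiation, IL-7 drives the growth of precursors in the bone marrow, and IL-5 supports B1 cells and antibody-secreting cells.

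The study's design sets each activated group against its control and the activated groups against each other. LMP1 cells had more Il2ra, Il5ra, Il15ra and Il21r than YFP control cells and less Il10ra and Il7r. CD40-activated cells had more Il9r than naive cells and less Il10ra, Il7r and Il5ra. In all, 6 of 9 receptor genes changed with LMP1, 4 higher and 2 lower, where 23.2% of all 21515 genes changed, 14.9% higher and 8.31% lower (limma, adjusted p under 0.05 over all genes). With CD40 activation 4 of 9 changed, 1 higher and 3 lower, against 17.7% of all genes, 11% higher and 6.65% lower. The median change of the 9 genes was 0.01 log2 with LMP1 and -0.41 with CD40 activation, beside -0.08 and -0.05 over all genes. Without LMP1 array 2 the LMP1 count was 3 of 9. The YFP controls were more than 1 log2 apart at 950 genes, against 364 genes for naive, 34 for CD40-activated and 14 for LMP1 arrays. Precision is limited by having 2 arrays in a group.

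Upstream sequences are shown for Il2ra and Il5ra because these genes rose with LMP1 and because their windows hold a motif of a factor downstream of LMP1 and CD40. Each sequence is the 250 bases before the start site in RefSeq's gene models (GRCm38.p6), 5′ to 3′, with motif matches in capitals. The Il2ra window lies at chr2:11642542-11642791 on the plus strand, directly before the gene, and its capitals mark overlapping matches to the NF-kB consensus, 201 to 191 bases before the start. The Il5ra window lies at chr6:106749038-106749287 on the minus strand, directly before the gene, and its capitals mark a match to the AP-1 motif TGANTCA, 99 to 93 bases before the start.
Il2ra: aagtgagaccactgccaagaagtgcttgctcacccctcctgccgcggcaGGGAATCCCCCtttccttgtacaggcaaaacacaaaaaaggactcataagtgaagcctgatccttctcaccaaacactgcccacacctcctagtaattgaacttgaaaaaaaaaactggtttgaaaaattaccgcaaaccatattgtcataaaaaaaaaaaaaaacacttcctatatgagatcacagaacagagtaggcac
Il5ra: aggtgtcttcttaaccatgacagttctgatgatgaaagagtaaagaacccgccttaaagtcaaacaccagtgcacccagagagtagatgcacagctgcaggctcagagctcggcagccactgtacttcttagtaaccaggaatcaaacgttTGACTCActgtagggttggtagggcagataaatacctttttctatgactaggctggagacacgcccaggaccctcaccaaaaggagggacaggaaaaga
On both strands, the NF-kB consensus was present in 7.25% of 32851 windows of this length, the AP-1 motif in 6.75% and the STAT motif TTCNNNGAA (GAS) in 7.02%. Promoter entries were matched for 8 of the 9 genes, all but Il10ra, with 2 start sites for Il15ra. Beyond Il2ra and Il5ra, the GAS motif matched at Il7r and the AP-1 motif at the second start site of Il15ra, and none of the 3 motifs matched in the windows of Il9r, Il21r, Il4ra and Il6ra. The windows of Il9r and of the second Il15ra start lie wholly inside the outer bounds of their genes, and are not shown. A match is a description of letters, not of a bound factor.

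Il2ra encodes the alpha chain of the IL-2 receptor (CD25), which raises the affinity of the receptor for IL-2. It was at 11.17 and 11.01 log2 in LMP1 cells, 8.52 and 10.15 in YFP controls, 7.75 and 7.38 on the CD40-activated arrays and 7.22 and 7.39 on the naive controls. Both LMP1 arrays were above all others, both YFP controls were above the naive and CD40-activated arrays, and the last 2 groups overlapped. Il2ra was 1.76 ± 0.41 log2 higher in LMP1 than in YFP control cells (standard error, n = 2 arrays per group, limma adjusted p = 0.0116). YFP control 2 was 1.63 log2 above YFP control 1, and the change was 0.94 without YFP control 1 and 2.57 without YFP control 2. Leaving out an LMP1 array ended the call (adjusted p = 0.0769 without array 1 and 0.0536 without array 2). With CD40 activation Il2ra was at 0.26 (95% interval -0.66 to 1.18, limma adjusted p = 0.723), and YFP control cells were above naive cells by 2.03 ± 0.41 (limma adjusted p = 0.00831; 1.22 without YFP control 2, and not called without naive control 1, adjusted p = 0.0549). The difference between LMP1 and CD40-activated cells was 3.53 ± 0.41 (limma adjusted p = 4.26e-04), with strain, sex, TAT-Cre, sort and series going along.

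Il15ra encodes the alpha chain that binds IL-15 and presents it to neighbouring cells, and its gene is the nearest protein-coding neighbour of Il2ra on chromosome 2, with 11977 bases between them. It was at 7.82 and 7.46 in LMP1 cells, 6.51 and 6.40 in YFP controls, 6.27 and 5.95 on the CD40-activated arrays and 5.81 and 6.04 on the naive controls. The LMP1 arrays stood apart from all others, and the naive and CD40-activated arrays overlapped. Il15ra rose with LMP1 by 1.19 ± 0.20 (limma adjusted p = 0.00173), or 2.27-fold. With CD40 activation it was at 0.19 (95% interval -0.25 to 0.62, limma adjusted p = 0.575). Across the 8 arrays Il2ra and Il15ra had the highest correlation among the 36 pairs of these 9 genes, r = 0.91, a description of 4 groups measured together. The 7 measured dendritic cell markers of a list of 8 had mean levels of 7.06 to 7.25 in LMP1 cells and 6.20 to 6.71 on the 6 other arrays. With LMP1, 2 of the 7 were higher, Flt3 (2.995) and Zbtb46 (1.785), and 0 lower, beside 14.9% and 8.31% of all genes. Batf3 (1.145), Ccr7 (0.205), Xcr1 (0.195), Itgax (-0.08) and Siglech (-0.41) did not pass. The part of dendritic cells in the levels of Il2ra and Il15ra was not tested.

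Il21r encodes the receptor for IL-21, a helper T cell cytokine. It was at 10.29 and 10.42 in LMP1 cells, 9.64 and 9.16 in YFP controls, 10.13 and 10.21 on the CD40-activated arrays and 10.08 and 9.90 on the naive controls. The YFP controls were the lowest arrays and the LMP1 arrays the highest, and no groups overlapped. Il21r was 0.96 ± 0.19 higher in LMP1 than in YFP control cells (limma adjusted p = 0.00552), and without LMP1 array 2 it did not pass (0.89, adjusted p = 0.0601). CD40 activation left it at 0.18 (95% interval -0.25 to 0.61, limma adjusted p = 0.584), and LMP1 and CD40-activated cells were 0.19 apart (95% interval -0.25 to 0.62, limma adjusted p = 0.653).

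Il4ra encodes the chain that binds IL-4 and also serves in the IL-13 receptor, and its gene lies beside Il21r on chromosome 7, with 23777 bases between them. It was at 8.78 and 8.81 in LMP1 cells, 10.17 and 9.11 in YFP controls, 9.38 and 9.50 on the CD40-activated arrays and 10.13 and 10.09 on the naive controls. The LMP1 arrays were below all others, and YFP control 1 was level with the naive arrays while YFP control 2 was below the CD40-activated ones. Neither change passed, at -0.85 ± 0.29 with LMP1 (limma adjusted p = 0.0596) and -0.67 ± 0.29 with CD40 activation (limma adjusted p = 0.145). Because the groups share an estimate of the spread, the YFP controls (standard deviation 0.75) also enter the error of the CD40 change. The standard deviations were 0.028 for naive and 0.085 for CD40-activated arrays. Without YFP control 2 the LMP1 change was -1.38 and passed (adjusted p = 7.2e-04), and without YFP control 1 it was -0.32 (adjusted p = 0.163). The CD40 change passed with either YFP control left out (adjusted p = 0.00689). Both also passed after quantile normalization of each array set on its own, at -1.14 and -0.88 (adjusted p = 0.00856 and 0.0373).

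Il7r encodes the alpha chain of the IL-7 receptor, which early B cell precursors and T cells carry. It was at 9.44 and 9.18 on the naive controls, 7.94 and 7.37 on the CD40-activated arrays, 6.66 and 7.02 in YFP controls and 5.85 and 6.07 in LMP1 cells. The 4 groups did not overlap. Il7r fell by 1.66 ± 0.23 with CD40 activation (limma adjusted p = 0.00105) and by 0.88 ± 0.23 with LMP1 (limma adjusted p = 0.0192). The LMP1 change did not pass without YFP control 2 (-0.70, adjusted p = 0.0993), LMP1 array 1 (-0.77, adjusted p = 0.154) or LMP1 array 2 (-0.99, adjusted p = 0.0653).

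The mean level of T cell markers was highest in naive cells, as Il7r was. In naive cells Cd3e, a chain of the T cell receptor complex, was at 9.96 and 9.39, against 5.85 to 6.68 on the 6 other arrays, and the mean level of 11 measured T cell markers of a list of 14 was 7.48 to 7.66 in naive cells, 5.44 to 5.68 in CD40-activated, 5.38 to 5.63 in YFP control and 5.20 to 5.30 in LMP1 cells. Of these 11 markers 10 were lower in CD40-activated than in naive cells and 0 higher. So were 6 of 9 measured NK and innate lymphoid markers, with 0 higher, beside 6.65% of all genes lower and 11% higher. Their part in the Il7r difference from naive cells was not tested, and in bulk RNA fewer cells of a type and less RNA per cell cannot be told apart. Among the cultured groups, Il7r was 1.70 ± 0.23 lower in LMP1 than in CD40-activated cells (limma adjusted p = 9.38e-04). There 2 of the 11 T cell markers were lower, beside 5.17% of all genes. These were Cd28 and Cd5, the latter also on the B1 cell marker list. Cd3e was at -0.37 (limma adjusted p = 0.442). Il7r was 0.82 higher in CD40-activated than in YFP control cells, where 0 of 11 T cell markers passed in either direction, beside 13.8% of all genes. Between LMP1 and YFP control cells 2 of 11 were lower, Cd3g and Cd28, beside 8.31% of all genes. The 7 measured precursor B cell markers of a list of 9, Il7r among them, had mean levels of 6.10 to 6.27 in naive cells and 4.71 to 5.38 on the 6 other arrays, and Rag2, a recombinase of precursors, was at 4.79 to 5.02 and 3.76 to 4.41. The 9 measured B cell markers of a list of 10 had mean levels of 10.43 to 11.39 on all arrays, so the defining markers of the labelled cell type were present. Of the 9, 5 were lower and 0 higher in LMP1 than in YFP control cells, beside 8.31% and 14.9% of all genes.

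**Figure D1:**
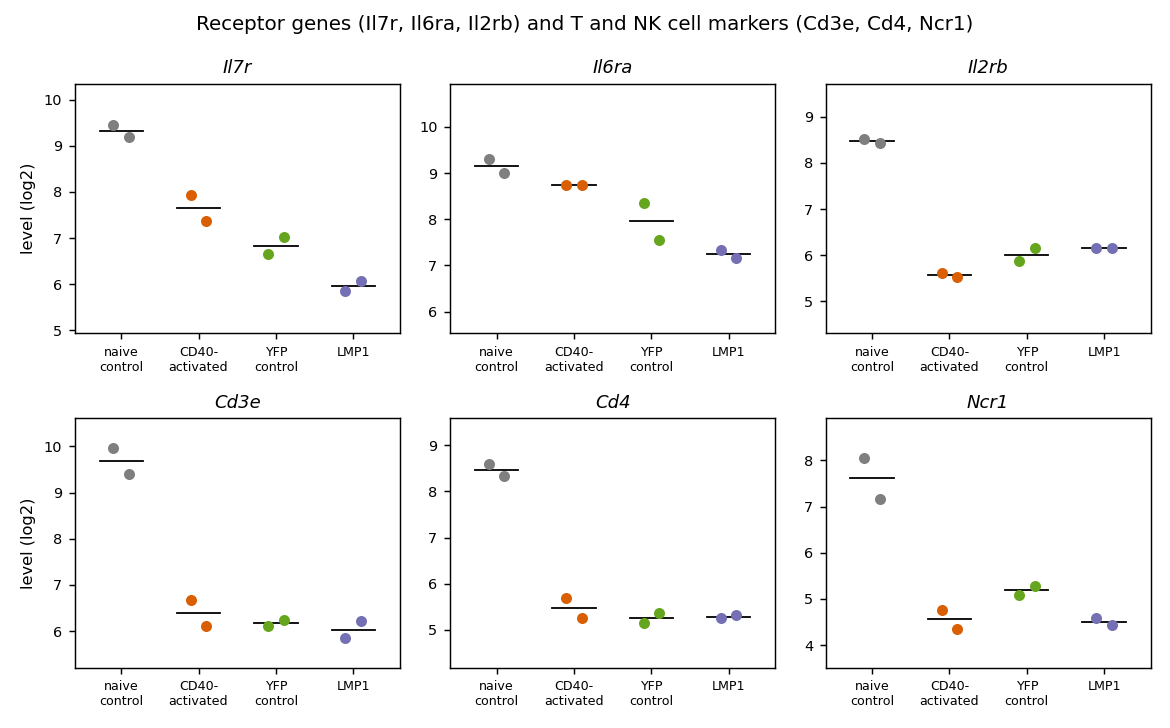
Levels (log2) of the receptor genes Il7r, Il6ra and Il2rb and of the T and NK cell markers Cd3e, Cd4 and Ncr1 on each of the 8 arrays, with points for arrays and bars for means of 2 arrays. The naive controls are highest in all 6 panels, with Cd3e at 9.96 and 9.39 there and at most 6.68 elsewhere, while Il7r also differs between the cultured groups.

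Il9r encodes the receptor for IL-9, a cytokine of T cells and mast cells that also acts on B cells. It was at 10.31 and 10.42 on the CD40-activated arrays, 6.99 and 6.93 on the naive controls, 5.94 and 6.02 in YFP controls and 5.94 and 6.04 in LMP1 cells. The CD40-activated arrays were more than 3 log2 above every other array, and the LMP1 and YFP control arrays overlapped near the array medians of 5.59 to 5.75. Il9r rose with CD40 activation by 3.41 ± 0.16 (limma adjusted p = 1.42e-05), or 10.6-fold. With LMP1 it was at 0.01 (95% interval -0.34 to 0.36, limma adjusted p = 0.977). The LMP1 response was below the CD40 response by 3.40 ± 0.22 (limma adjusted p = 4.17e-05), a call kept under each of the 14 alternatives run for it. Il9r was also 0.98 ± 0.16 lower in YFP control than in naive cells (limma adjusted p = 0.00265), and strain, sex and treatment go along with that difference too. The 10 measured markers of eosinophils, basophils and mast cells had mean levels of 4.06 to 4.17 in CD40-activated and 4.54 to 4.62 in naive cells, and Kit, Cpa3 and Fcer1a, which define mast cells, were at 5.29 and 4.90, 3.27 and 3.10, and 3.31 and 3.33 on the CD40-activated arrays.

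Il5ra encodes the alpha chain of the IL-5 receptor, known on B1 cells and eosinophils. It was at 8.36 and 8.10 in LMP1 cells, 6.09 and 6.76 in YFP controls, 7.81 and 6.85 on the naive controls and 6.31 and 6.21 on the CD40-activated arrays. LMP1 arrays were above all others, and CD40-activated arrays lay within the range of the YFP controls. Il5ra rose with LMP1 by 1.81 ± 0.31 (limma adjusted p = 0.00222), or 3.49-fold. With CD40 activation it fell by 1.07 ± 0.31 (limma adjusted p = 0.0408), and that call was lost in 7 of 15 alternatives. Without naive control 1 it was at -0.59 (adjusted p = 0.211). The opposite directions differed in the test of the difference, by 2.88 ± 0.44 (limma adjusted p = 0.00384). Naive control 1 also exceeded naive control 2 at Spn, the gene of CD43 (8.15 and 7.31), and at Itgam, an integrin of myeloid and B1 cells (6.87 and 5.91). It did so as well at the T cell marker Cd3e and the NK cell marker Ncr1, so this was not particular to B1 cell markers. Of the list of 8 B1 cell markers that holds Spn and Itgam, 3 were higher and 3 lower in CD40-activated than in naive cells, beside 11% and 6.65% of all genes. Among them Fcrl5 (3.87) and Bhlhe41 (2.11) moved against Il5ra, and Spn (-1.05), Itgam (-1.86) and Cd5 (-1.30) with it. With LMP1, 2 were higher and 1 lower, beside 14.9% and 8.31% of all genes. Plscr1 (1.92) and Zbtb32 (0.83) rose as Il5ra did, and Bhlhe41 (-2.87) fell. The mean level of the list was 6.41 to 6.50 in LMP1, 6.725 to 6.995 in YFP control, 6.25 to 6.55 in naive and 6.70 to 6.73 in CD40-activated cells. The responses differed at 2 of the 8, Fcrl5 (-4.94) and Bhlhe41 (-4.98), opposite in sign to Il5ra, where 4.12% of all genes were called downward. The part of B1 cells in the Il5ra levels was not tested. CD40-activated cells could not be set apart from YFP control cells, which were also cultured, at -0.17 (95% interval -0.86 to 0.53, limma adjusted p = 0.788).

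Il10ra encodes the ligand-binding chain of the IL-10 receptor. It was at 8.43 and 8.20 in LMP1 cells, 9.90 and 9.23 in YFP controls, 8.28 and 8.30 on the CD40-activated arrays and 10.07 and 10.06 on the naive controls. Each activated group lay below its control without overlap. Il10ra fell by 1.25 ± 0.22 with LMP1 (limma adjusted p = 0.00253) and by 1.78 ± 0.22 with CD40 activation (limma adjusted p = 6.08e-04), or 2.38-fold and 3.42-fold. Of 11 monocyte and macrophage markers 2 were lower and 0 higher with LMP1, Adgre1 (-2.02) and Lyz2 (-1.91), beside 8.31% and 14.9% of all genes. With CD40 activation 4 of these markers were lower and 1 higher, beside 6.65% and 11% of all genes. Their mean level was 5.19 to 5.29 in LMP1, 5.56 to 5.97 in YFP control, 5.67 to 6.05 in naive and 5.35 to 5.37 in CD40-activated cells. The part of these cells, and of the T cells whose markers were lower for 10 of 11 with CD40 activation, in the Il10ra changes was not tested. The difference between the responses was 0.53 (95% interval -0.17 to 1.22, limma adjusted p = 0.37). The LMP1 and CD40-activated levels were 0.03 apart (95% interval -0.47 to 0.52, limma adjusted p = 0.971).

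Il6ra encodes the IL-6-binding chain, which signals through gp130. It was at 9.31 and 8.99 on the naive controls, 8.73 and 8.75 on the CD40-activated arrays, 8.35 and 7.56 in YFP controls and 7.33 and 7.16 in LMP1 cells. The 4 groups did not overlap, but the changes did not pass, at -0.71 ± 0.25 with LMP1 (limma adjusted p = 0.0678) and -0.41 ± 0.25 with CD40 activation (limma adjusted p = 0.306). Without YFP control 2, which was 0.79 log2 below YFP control 1, the LMP1 change was -1.11 and passed (adjusted p = 0.00432), and without YFP control 1 it was -0.32 (adjusted p = 0.242). After quantile normalization of each array set the changes were -1.03 and -0.66 and passed (adjusted p = 0.00484 and 0.0489), and without naive control 1 the CD40 change was -0.25 (adjusted p = 0.636). Il6ra was 1.50 ± 0.25 lower in LMP1 than in CD40-activated cells (limma adjusted p = 0.00305). It was 1.20 ± 0.25 lower in YFP control than in naive cells (limma adjusted p = 0.00942), a call lost without naive control 1 (-1.04, adjusted p = 0.0623). In that comparison 10 of 11 T cell markers were lower as well, beside 7.59% of all genes, and their part was not tested.

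**Figure D2:**
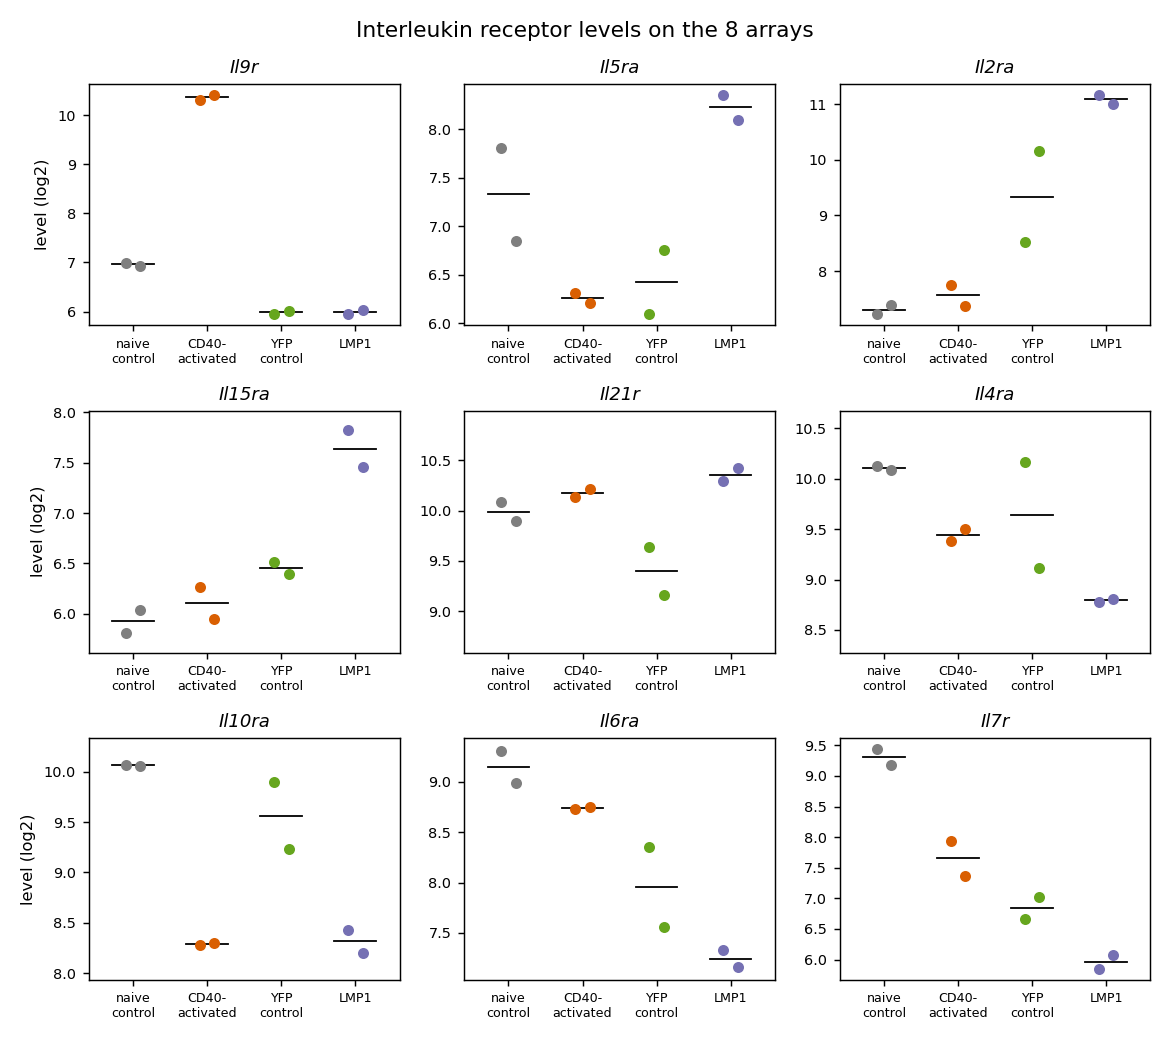
Levels (log2) of the 9 receptor genes on the 8 arrays, in a panel per gene with its own range, points for arrays and bars for means of 2 arrays. Il9r is high on the CD40-activated arrays alone (10.31 and 10.42), Il2ra, Il15ra and Il5ra are highest in LMP1 cells, and Il10ra, Il6ra and Il7r are highest on the naive arrays.

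**Figure D3:**
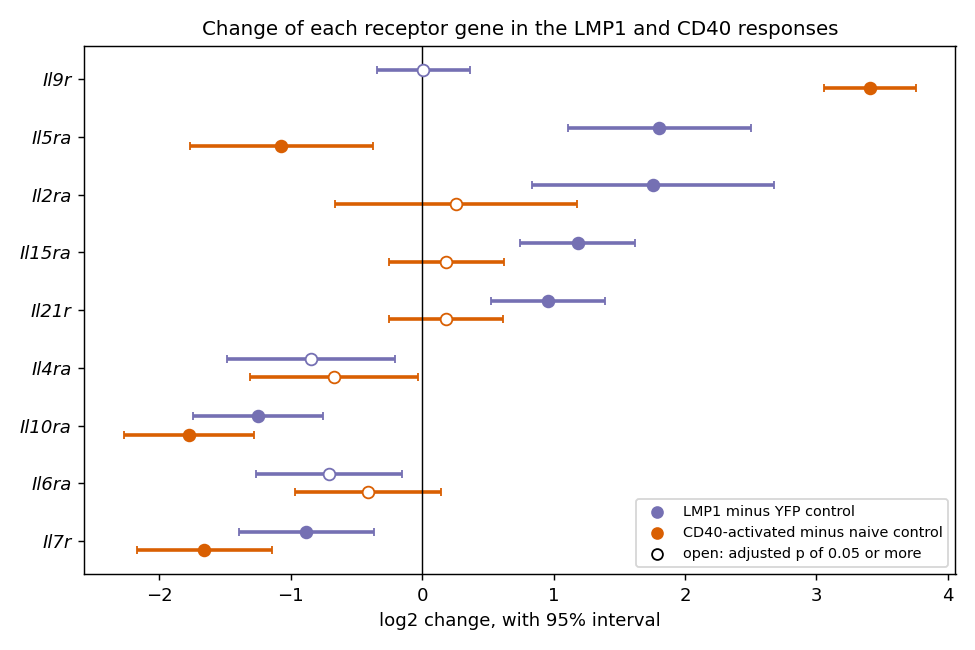
Log2 change of each receptor gene in LMP1 minus YFP control cells and in CD40-activated minus naive control cells, with 95% intervals from the limma fit, filled where the adjusted p is under 0.05. Il9r lies at 3.41 with CD40 and at 0.01 with LMP1, Il5ra lies on opposite sides of 0, and Il10ra and Il7r lie below 0 in both.

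LMP1 and CD40-activated cells were compared directly. LMP1 cells had more Il2ra, Il5ra (1.97) and Il15ra (1.53) and less Il9r (-4.38), Il7r and Il6ra, so that 6 of 9 differed, 3 in each direction, against 14.8% of all genes, 9.66% higher and 5.17% lower. For Il4ra the difference was -0.65 (95% interval -1.28 to -0.01, limma adjusted p = 0.189), and it passed with either YFP control left out (adjusted p = 0.00887). YFP control and naive cells, which differ in culture, strain, sex, TAT-Cre, sort and series, differed at 4 of 9 genes, Il2ra higher and Il9r, Il6ra and Il7r (-2.47) lower, against 18.5% of all genes, 10.9% higher and 7.59% lower. That count was 7 without YFP control 1 and 2 without naive control 1. The test of the LMP1 response against the CD40 response called 2 of 9, Il5ra upward and Il9r downward, against 8.32% of all genes, 4.2% upward and 4.12% downward. It called 5 without YFP control 1. CD40-activated cells differed from YFP control cells, which were also cultured, at 5 of 9 genes, with Il9r (4.39), Il21r (0.77) and Il7r higher and Il2ra and Il10ra (-1.28) lower, against 13.8% of all genes, 7.75% higher and 6.06% lower, and that count was 1 with either CD40-activated array left out and 3 with either LMP1 array left out. LMP1 cells differed from naive cells at 7 of 9 genes, 2 higher and 5 lower, against 32.9% of all genes, 18.9% higher and 14% lower.

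The order of the levels differed between the genes. For Il9r it ran CD40-activated, naive, LMP1 and YFP control, with no detectable step between the last 2 groups. For Il2ra and Il15ra it ran LMP1, YFP control, CD40-activated and naive, where LMP1 stood above YFP control in both. YFP control exceeded CD40-activated cells for Il2ra (by 1.77, limma adjusted p = 0.0191; 0.96 without YFP control 2, and not called with either CD40-activated array left out) but not detectably for Il15ra (limma adjusted p = 0.293). For Il5ra the order was LMP1, naive, YFP control and CD40-activated, and no neighbouring groups in it passed the test (limma adjusted p = 0.0504, 0.0718 and 0.788). Likewise no neighbours passed for Il21r (LMP1, CD40-activated, naive, YFP control) or for Il4ra (naive, YFP control, CD40-activated, LMP1). For Il10ra naive and YFP control cells did not differ detectably (limma adjusted p = 0.148), nor did LMP1 and CD40-activated cells. Il6ra and Il7r ran naive, CD40-activated, YFP control and LMP1, with each step of Il7r past the test (0.82 between CD40-activated and YFP control, limma adjusted p = 0.0422, lost in 10 of 15 alternatives) and no step of Il6ra.

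Over the 8 arrays, the genes closest to each receptor gene were taken by Pearson correlation among 5531 genes whose group means spanned at least 1 log2. Il21r, whose group means spanned 0.96 log2, was left out by the same limit. Nearest to Il9r were Ralgds (r = 0.99), Arhgap24 (0.99) and Trim36 (0.98), and Ralgds averaged 10.03 in CD40-activated and 7.90 in naive cells. Nearest to Il5ra were Plk2, Spire1 and Anxa2 (0.98 each). Nearest to Il2ra were E2f5, Mphosph6 and Lactb (0.99 each), and to Il15ra Gemin2 (0.99), Trpc1 (0.99) and Ccnb1ip1 (0.98). Nearest to Il10ra were Zfp36l2, Cacna1i and Mylip (0.99 each), with Cacna1i at 5.26 in LMP1, 5.51 in CD40-activated, 7.96 in YFP control and 9.22 in naive cells. Il4ra was nearest to Atp2a3, Neat1 and Pbxip1 (0.99 each), and Il6ra to Gripap1, Irgq and Kidins220 (0.99, 0.99 and 0.98). Il7r was nearest to Cpe (0.995), Sla2 (0.99) and Cd5 (0.99), which is on both the T cell and the B1 cell marker lists. Among the receptor genes themselves, Il2ra and Il6ra ran opposite (r = -0.98) and Il6ra and Il7r together (0.89). With 8 arrays in 4 groups, such values are a description of shared group patterns.

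The list of shared chains, which also holds Csf2rb2, a relative of the shared chain Csf2rb, was measured by 7 of 8 genes. Il2rg, the common gamma chain, was not analysed here. With LMP1, 3 of 7 fell, Csf2rb2 among them, and 0 rose, where 8.31% of all genes were lower and 14.9% higher. Il10rb, the accessory chain of the IL-10 receptor, was at 8.49 and 8.41 in LMP1 cells and 10.02 and 9.67 in YFP controls, a fall by 1.40 ± 0.18 (limma adjusted p = 3.7e-04). Csf2rb, the common beta chain that pairs with Il5ra, was at 5.30 and 5.45 in LMP1 cells and 6.43 and 6.83 in YFP controls, a fall by 1.26 ± 0.22 (limma adjusted p = 0.0022). Thus the alpha chain of the IL-5 receptor and its shared chain moved in opposite directions with LMP1, while both chains of the IL-10 receptor fell. Csf2rb in LMP1 cells lay below the medians of those arrays (5.59 and 5.62), so its fall has a low-intensity side. Csf2rb2, a mouse-specific relative of Csf2rb whose probes can share its sequence, was at -0.85 (limma adjusted p = 0.0361), a call lost in 7 of 15 alternatives and at -0.61 without YFP control 2. Il6st (gp130) was at -0.52, Il13ra1 at 0.56, Crlf2, a chain of the TSLP receptor, at 0.24 and Il2rb at 0.14 without passing.

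With CD40 activation 2 of the 7 shared chains fell and 0 rose, where 6.65% of all genes were lower and 11% higher. Il2rb, which serves IL-2 and IL-15, was at 8.51 and 8.44 on the naive controls, 5.62 and 5.52 on the CD40-activated arrays, 5.88 and 6.15 in YFP controls and 6.15 and 6.16 in LMP1 cells. It fell by 2.91 ± 0.17 (limma adjusted p = 1.93e-05), and the NK cell receptor Ncr1 was at 8.06 and 7.17 on the naive arrays and 4.36 to 5.28 elsewhere, so that NK and T cell markers moved with Il2rb. Their part was not tested. Il6st was at 8.18 and 8.25 on the naive and 7.43 and 7.46 on the CD40-activated arrays, -0.77 ± 0.17 (limma adjusted p = 0.0119; lost without naive control 2 or with either CD40-activated array left out). Il10rb (0.29), Csf2rb (0.28), Csf2rb2 (-0.52), Il13ra1 (0.52) and Crlf2 (-0.47) did not pass. The LMP1 and CD40 responses differed at Il10rb (-1.69, limma adjusted p = 0.00297), Csf2rb (-1.54, limma adjusted p = 0.0142) and Il2rb (3.05, limma adjusted p = 1.09e-04). For Il2rb the change was 0.14 with LMP1, so the difference came from the fall with CD40 activation. In that test 7 of 11 T cell and 6 of 9 NK and innate lymphoid markers were also called upward and 0 downward, beside 4.2% and 4.12% of all genes. Their part in the Il2rb difference was not tested.

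Of 11 ligand genes of these receptors 3 rose and 1 fell with LMP1. Over all genes 14.9% rose and 8.31% fell with LMP1, and 11% rose and 6.65% fell with CD40 activation. Il13 was at 8.28 and 7.80 in LMP1 cells and 6.12 and 6.26 in YFP controls, a rise of 1.85 ± 0.20 (limma adjusted p = 1.42e-04). Il6, the ligand of Il6ra, was at 6.81 and 6.15 against 3.66 and 4.80, a rise of 2.25 ± 0.36 (limma adjusted p = 0.00142). Il9, the ligand of Il9r, differed between replicates, at 7.74 and 5.62 in LMP1 cells and 4.43 and 4.17 in YFP controls, with a change of 2.38 ± 0.54 (limma adjusted p = 0.00973), 1.32 without LMP1 array 1, and no call without YFP control 2 (adjusted p = 0.064). Il9r itself lay at 5.94 and 6.04 on those LMP1 arrays. Il10 was at 3.76 and 3.88 in LMP1 cells and 4.84 and 5.88 in YFP controls. The fall was by 1.54 ± 0.30 (limma adjusted p = 0.00454), and -1.02 without YFP control 2. Il10 in LMP1 cells, and Il6 and Il9 in YFP controls, lay below the medians of those arrays (5.59 to 5.73), so these changes have a low-intensity side. Il10 on YFP control 1 (4.84) was below the median of that array (5.62) as well. With CD40 activation the ligand count was 1 of 11, Il13 (-0.65, limma adjusted p = 0.0473), and Il13 did not pass in 10 of 15 alternatives. The count was 3 with either YFP control left out and 0 without any other array.

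Among JAK kinases and STAT factors, 9 genes were analysed here. With LMP1, 2 of the 9 changed, where 23.2% of all genes did, and 17.7% of all genes changed with CD40 activation. With LMP1 Stat5a, which acts below the IL-2 and IL-7 receptors, rose by 0.91 ± 0.17 (limma adjusted p = 0.00355; 9.03 and 9.14 against 8.10 and 8.26; 0.58 after quantile normalization of each array set), and Jak2, the kinase of the common beta chain, fell by 0.88 ± 0.17 (limma adjusted p = 0.00491; 8.87 and 8.77 against 9.63 and 9.76; lost without LMP1 array 2). The count of 2 was 6 without YFP control 2 and 1 without LMP1 array 2. With CD40 activation 1 of 9 changed, Stat4, a factor that T and NK cells also express, which was at 8.11 and 7.99 on the CD40-activated arrays and 9.88 and 9.67 on the naive controls (-1.73 ± 0.17, limma adjusted p = 1.59e-04). That count was 2 with either YFP control left out. Stat4 was at 10.96 and 11.16 in YFP controls and 11.56 and 11.51 in LMP1 cells, above the naive arrays.

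Of 19 feedback regulators 4 rose and 4 fell with LMP1, where 14.9% of all genes rose and 8.31% fell. The all-gene shares with CD40 activation were 11% and 6.65%. Socs1, an inhibitor of JAK kinases, rose by 1.12 ± 0.24 (limma adjusted p = 0.008; 0.70 without YFP control 2, and lost with either LMP1 array left out), Socs2 by 0.88 ± 0.17 (limma adjusted p = 0.00371) and the phosphatase gene Ptpn11 by 1.02 ± 0.28 (limma adjusted p = 0.0236; 0.51 without YFP control 2). The ubiquitin ligase gene Cblb fell by 1.29 ± 0.18 with LMP1 (limma adjusted p = 7.09e-04) and by 1.08 ± 0.18 with CD40 activation (limma adjusted p = 0.00303), where it was the 1 changed gene of 19. The LMP1 count of 8 was 2 with either LMP1 array left out, and the CD40 count of 1 was 6 with either YFP control left out and 2 without naive control 2.

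Of 16 genes that respond to STAT factors, 9 rose and 1 fell with LMP1, with a median of 0.73 log2. Over all genes 14.9% rose and 8.31% fell with LMP1, with a median of -0.08. For CD40 activation the all-gene shares were 11% and 6.65%, with a median of -0.05. The cyclin gene Ccnd2 rose by 2.88 ± 0.20 (limma adjusted p = 1.9e-05), Batf, a transcription factor of class switching, by 2.31 ± 0.25 (limma adjusted p = 1.64e-04) and the kinase gene Pim1 by 2.19 ± 0.50 (limma adjusted p = 0.00971; 1.18 without YFP control 2, 1.20 as the mean of its probe sets, and lost with either LMP1 array left out). Bcl6, the regulator of germinal centre B cells, fell by 2.11 ± 0.19 (limma adjusted p = 5.47e-05). With CD40 activation 5 rose and 3 fell, with a median of -0.19, led by Gadd45g (-1.51 ± 0.18, limma adjusted p = 4.53e-04) and Id2 (-1.43 ± 0.18, limma adjusted p = 6.55e-04), while the B cell activation factor Irf4 was at 0.99 ± 0.20 (limma adjusted p = 0.00713). Many other signals reach these genes, so they do not read out the receptors. The count with LMP1 was 6 with either LMP1 array left out, and with CD40 the count of 8 was 2 without CD40-activated array 1, 3 without array 2, 4 without naive control 2 and 5 without naive control 1 or with either LMP1 array left out.

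**Figure D4:**
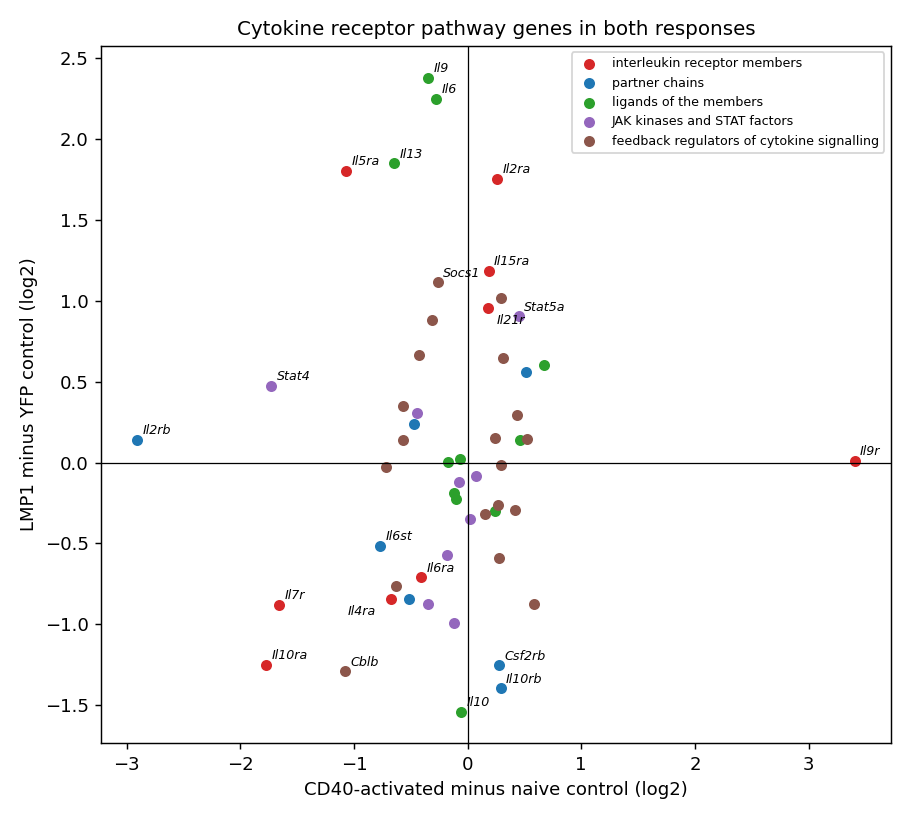
Log2 change in LMP1 minus YFP control cells against the change in CD40-activated minus naive control cells for the receptor genes, their shared chains, ligands, JAK kinases and STAT factors, and feedback regulators, with a point per gene. Il9r stands alone at the right edge, Il2rb at the left edge, and the ligands Il9, Il6 and Il13 at the top.

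Of 22 measured genes of other interleukin receptors, from a list of 24, 2 rose and 1 fell with LMP1. Beside them, 14.9% of all genes rose and 8.31% fell with LMP1, and 11% rose and 6.65% fell with CD40 activation. Il12rb1, a chain of the IL-12 and IL-23 receptors, was at 8.25 and 8.16 in LMP1 cells and 5.86 and 6.21 in YFP controls (2.17 ± 0.20, limma adjusted p = 6.16e-05). Il1r2, a decoy receptor for IL-1, was at 7.70 and 7.06 against 5.21 and 5.46 (2.05 ± 0.22, limma adjusted p = 1.54e-04). Il18r1 was at -0.65 (limma adjusted p = 0.0392), a call lost in 9 of 15 alternatives. The count was 5 without YFP control 2. With CD40 activation 1 rose and 6 fell, led by both chains of the IL-18 receptor, Il18rap (-2.77 ± 0.21, limma adjusted p = 4.94e-05) and Il18r1 (-2.04 ± 0.20, limma adjusted p = 1.52e-04), followed by Il12rb2 (-1.23 ± 0.24, limma adjusted p = 0.00704). These are genes of NK and T cells, whose markers were lower as well, and their part was not tested. That count of 7 was 4 without LMP1 array 1, LMP1 array 2 or naive control 1, 2 without CD40-activated array 1 and 3 without CD40-activated array 2.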

How the data were processed

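RNA of 8 samples of mouse B cells was labelled with a whole-transcript kit and hybridised to Affymetrix arrays, 1 sample per array. The deposited values are log2 intensities that the authors made with RMA in oligo, per the submitters' processing notes, with no versions given. No scanner files were used here. Of 25349 probe sets, 22225 carried 1 gene symbol in the platform annotation, 616 several and 2508 none, and only the first were used. For 640 genes with several probe sets the one with the highest mean was taken, which left 21515 genes. A linear model with 4 group means was fitted over the 8 arrays in limma 3.58.1 (R 4.3.3). The groups shared an estimate of the spread of each gene, also in tests between groups with little spread of their own. Benjamini-Hochberg adjustment was over all genes, with a threshold of 0.05. The procedure was tested on simulated data with equal spread in all groups. That test does not cover unequal spread, such as the wider spread of the YFP controls. Errors are standard errors of the fit.

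The receptor genes and gene lists were chosen with earlier results of these data known. The rule for named genes took all receptor genes and shared chains, up to 4 genes of each other list with the largest changes past the test and up to 2 with the smallest (not printed here), the 3 genes nearest to each receptor gene by Pearson correlation, and cell type markers. The alternatives were a trend with robust fitting, fits of only the groups compared, dim genes left out, mean of probe sets, array medians subtracted, quantile normalization within each set of 4 arrays, replicate number as a block, and each array left out. The list counts under them were added after seeing the data. Whether replicates are separate animals is not given, so p-values measure the spread between these samples.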

Additional observations from a re-analysis of the deposited data

Results flagged for a closer look

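The LMP1 response and the CD40 response differed at Il9r by -3.40 log2 (limma adjusted p = 4.17e-05), with a change of 3.41 in CD40-activated against naive cells and 0.01 in LMP1 against YFP control cells. They differed at Il5ra by 2.88 log2 (limma adjusted p = 0.00384), with both LMP1 arrays above both YFP controls and both CD40-activated arrays below both naive controls. Both come from the test of the difference itself. Strain, sex, TAT-Cre, sorting, series and the treatment of the control cells differ between the responses and cannot be told apart from them.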

How the results depend on the processing

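Over the alternatives, single genes kept direction and side of the threshold 1421 times, gained the call 40 times, lost it 93 times and changed sign 11 times, and counts stayed within 1.5 times 228 times and moved further 56 times. The groups share an estimate of the spread of each gene, so leaving out an array can also change tests of groups it does not belong to. The causes of single shifts were not tested. Leaving out each array gave 3 to 7 receptor genes for LMP1 against YFP control, 3 to 5 for CD40-activated against naive, 2 to 7 for YFP control against naive, 1 to 5 for CD40-activated against YFP control and 2 to 5 for the difference between the responses. CD40-activated against YFP control gave 2 with only the groups compared and 3 after quantile normalization within each set. With LMP1, leaving out each array gave 2 to 5 other interleukin receptors, 1 to 6 JAK kinases and STAT factors, 2 to 9 feedback regulators and 6 to 12 STAT-responsive genes. JAK kinases and STAT factors numbered 4 with trend and robust fitting and 5 under quantile normalization within each set, and feedback regulators 5 with only the groups compared. With CD40 activation the ranges were 1 to 2 shared chains, 2 to 8 other interleukin receptors, 0 to 3 ligands, 1 to 2 JAK kinases and STAT factors, 1 to 6 feedback regulators and 2 to 11 STAT-responsive genes. Ligands numbered 0 with trend and robust fitting, array medians subtracted, quantile normalization within each set and the replicate block. Feedback regulators numbered 2 with only the groups compared, dim genes left out or array medians subtracted and 3 under quantile normalization within each set, which gave 2 JAK kinases and STAT factors and 5 STAT-responsive genes.

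Leaving out each array ran from -0.04 to 0.06 for Il9r and from -0.16 to 0.64 for Crlf2 in LMP1 against YFP control, from -0.09 to 0.14 for Il10ra in LMP1 against CD40-activated, and from -1.0 to 0.06 for Il4ra in YFP control against naive. In CD40-activated against YFP control it ran from -0.50 to 0.17 for Il5ra and from -0.73 to 0.33 for Il4ra. For the difference between the responses it ran from -0.71 to 0.36 for Il4ra and from -0.70 to 0.10 for Il6ra. Quantile normalization within each set put Il21r at -0.014 in CD40-activated against naive and Crlf2 at -0.069 in LMP1 against YFP control.

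The replicate numbers did not pair the samples: the correlation of replicate differences between groups ran from -0.10 to 0.07. With the replicate block, 7 receptor genes passed for LMP1 against YFP control (Il6ra joined, adjusted p = 0.0415) and 4 for CD40-activated against naive. Of all calls, 64.2% were higher with LMP1 and 62.4% with CD40 activation, against 70% and 74.3% with array medians subtracted and 52.1% and 52.6% under quantile normalization within each set. For CD40-activated against YFP control that share was 56.1% and fell to 37.8% with the latter, and for LMP1 against naive it was 57.5% and 68.4% with array medians subtracted, where the median change of all genes moved from -0.08 to 0.04. All 9 receptor genes passed the filter on dim genes, which kept 16139 genes. The number of arrays, 2 per group, limits all values.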
